A study of Danio rerio with 6 samples.

Results

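Ionocytes are the salt-transporting cells scattered through the skin of larval zebrafish. The genes described here were chosen by name and function: the fate factors foxi3a, foxi3b and gcm2, the carbonic anhydrases ca2 and ca15a, the calcium channel trpv6, and the sodium pump subunits atp1a1a.1, atp1a1b, atp1b1a and atp1b1b. Of these 10 genes, 4 had a probe set (a group of array probes for 1 transcript) that the array annotation gives that gene symbol alone, and they had 6 probe sets of the 15502 tested. Ca2 and atp1b1a had 2 probe sets each, and atp1a1b and atp1b1b had 1 each. No probe set was matched to ca15a, foxi3a, foxi3b, gcm2, trpv6 or atp1a1a.1, which were not analysed here.

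RNA came from regenerating tail fins of AB strain larvae, cut at 2 days post fertilization and collected 1 day after amputation. The beclomethasone group had 3 pools from larvae kept in water with 1 uM of this synthetic glucocorticoid, and the control group had 3 pools. Each pool held 150 fins and was hybridised to 1 Affymetrix zebrafish array, and nothing in the labels says whether pools came from separate clutches. The series text names vehicle controls, and the protocol of the exposed samples names DMSO as the vehicle, while the protocol of the control samples describes a time course of untreated regeneration. Should the groups come from separate experiments, that and the drug cannot be told apart. The deposited values are ratios, in most cases scaled so that a probe set has a median of 1 in these 6 pools, and they carry no expression level. A difference below is beclomethasone minus control on the log2 scale, ± its standard error, with 3 pools in each group, tested with limma across all probe sets, and a gene is called where the adjusted p is under 0.05. Each p sets the group difference against the spread between these pools, with each probe set's variance drawn toward that of all probe sets. It need not reflect variation between clutches.

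Several ionocyte types share the larval skin. Foxi3a and foxi3b are transcription factors that commit skin precursors to the ionocyte fate, and gcm2 is a transcription factor of the proton-secreting type. In that type carbonic anhydrase turns carbon dioxide and water into bicarbonate and a proton for secretion. The sodium pump, built of an alpha subunit that moves the ions and a beta subunit that carries the complex to the membrane, drives uptake from the basal side in every type, and trpv6 admits calcium in the pump-rich type. Cortisol, the natural glucocorticoid of fish, is known to act on ionocyte number and salt uptake in larvae.

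Ca2, which encodes a cytosolic carbonic anhydrase, fell in both of its probe sets in beclomethasone-exposed fins. On its first probe set the ratios were 0.721, 0.509 and 0.412 in beclomethasone pools 1 to 3, against 1.28, 1.59 and 1.68 in control pools 1 to 3. On the second they were 0.765, 0.720 and 0.578 in the beclomethasone pools, against 1.24, 2.01 and 1.84 in the control pools. Every beclomethasone pool lay below every control pool on both probe sets. The pools nearest to each other were pool 1 of each group, and the lowest was beclomethasone pool 3 on both. The fall was -1.50 ± 0.21 on the first probe set (2.82-fold lower; limma adjusted p = 0.0105) and -1.28 ± 0.20 on the second (2.43-fold lower; limma adjusted p = 0.0154). Centred on their means, the profiles of these 2 probe sets over the 6 pools differed by a root mean square of 0.207 log2 units. With the probe sets averaged, as the gene-level test has it, the difference was -1.39 (limma adjusted p = 0.00837). The first probe set kept its call without any 1 of the 6 pools (-1.72 to -1.31). The second lost its call without beclomethasone pool 1 (limma adjusted p = 0.0506), pool 2 (0.0513) or pool 3 (0.0676) or without control pool 3 (0.0555). The differences there were -1.36, -1.32, -1.16 and -1.21. Calls over the whole array changed too, from 446 higher and 502 lower with all 6 pools. Without beclomethasone pool 1, 2 or 3 they were 199, 176 and 187 higher and 217, 204 and 180 lower. Without control pool 3 they were 178 higher and 235 lower, and without control pool 2, 357 and 262. Leaving out control pool 1 raised them to 565 and 668. Calls lost or gained without 1 pool, here and below, stand beside these counts.

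**Figure D1:**
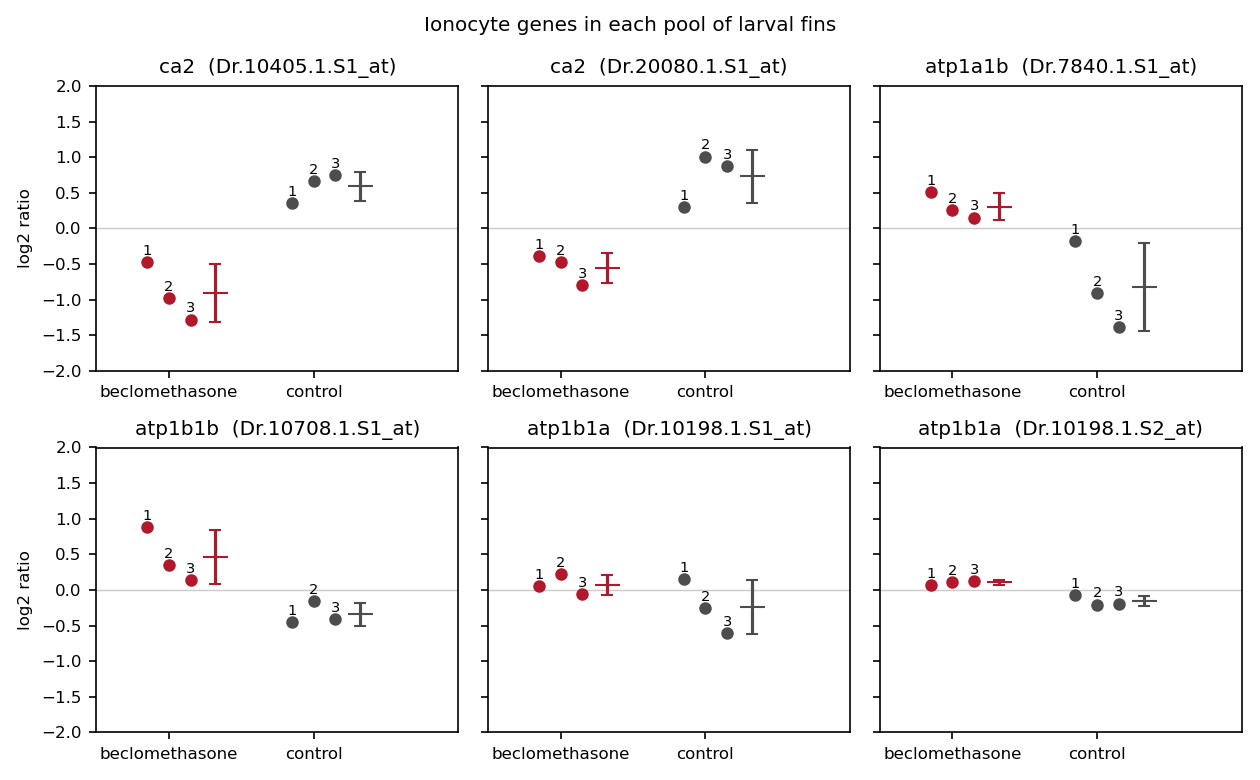
Log2 ratio (y axis) of each of the 6 probe sets in beclomethasone pools 1 to 3 (red, left) and control pools 1 to 3 (grey, right), with the mean and SD of the 3 pools beside the points. Both ca2 probe sets lie below 0 in every beclomethasone pool and above 0 in every control pool. Atp1a1b and atp1b1b lie above 0 in the beclomethasone pools and below 0 in the control pools. The scaling to a median of 1 places groups that do not overlap on opposite sides of 0.

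The sodium pump genes among the members had higher values in beclomethasone-exposed fins, and none passed the threshold. Atp1a1b, which encodes a catalytic alpha 1 subunit, had ratios of 1.43, 1.19 and 1.11 in beclomethasone pools 1 to 3, against 0.888, 0.531 and 0.383 in control pools 1 to 3. The groups did not overlap, and the control pools spread more widely (SD 0.61 on the log2 scale) than the beclomethasone pools (SD 0.19). Its difference was 1.13 ± 0.29 (2.19-fold; 95% interval 0.46 to 1.80; limma adjusted p = 0.0654). Control pool 1 was the control nearest to the exposed pools, and without it the difference was 1.45 and passed (limma adjusted p = 0.00366). Without any other 1 pool the difference was 0.85 to 1.21 and did not pass (limma adjusted p = 0.124 to 0.203).

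Atp1b1b, a beta 1 subunit gene reported in zebrafish ionocytes, had ratios of 1.85, 1.28 and 1.104 in the beclomethasone pools, against 0.729, 0.896 and 0.755 in the control pools. Again no beclomethasone pool reached down to a control pool, and beclomethasone pool 1 stood highest. The difference was 0.80 ± 0.20 (1.74-fold; 95% interval 0.34 to 1.26; limma adjusted p = 0.0608), and 0.59 without beclomethasone pool 1 (adjusted p = 0.099). In the gene-level test, which adjusts over fewer features, it passed with an adjusted p of 0.0489.

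Atp1b1a encodes the other beta 1 subunit, and the zebrafish mutant psoriasis, with an overgrown epidermis, carries a lesion in it. Its first probe set had ratios of 1.04, 1.16 and 0.958 in beclomethasone pools 1 to 3, against 1.11, 0.837 and 0.658 in control pools 1 to 3. Control pool 1 lay among the beclomethasone pools there. The second probe set had ratios of 1.05, 1.08 and 1.09 in the beclomethasone pools, against 0.951, 0.868 and 0.876 in the control pools, with no overlap and little spread in either group. The differences were 0.31 ± 0.19 (95% interval -0.14 to 0.76; limma adjusted p = 0.449) and 0.26 ± 0.09 (95% interval 0.041 to 0.48; limma adjusted p = 0.165).

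Counted together, 2 of the 6 probe sets were called lower, both of ca2, and limma called 0 higher, while without adjustment 3 higher ones had a p under 0.05. The groups did not overlap for 3 probe sets that were higher and 2 that were lower. Over all 15502 probe sets, 3.24% were called lower and 2.88% higher, and the groups did not overlap for 11.8% in the lower and 14.5% in the higher direction. A p under 0.05 without adjustment was reached by 1707 of these 15502 in the higher and 1552 in the lower direction. Unadjusted counts, here and for the lists below, stand beside these numbers and not beside the shares called. The median difference of the 6 probe sets was 0.28, beside 0.029 over all probe sets. With 4 genes, these counts describe the genes and say nothing of ionocytes as a class. In RNA from pooled fins, fewer cells of a type and less RNA per cell cannot be told apart.

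Among the other sodium pump subunit genes on the array, 1 rose. Of 18 probe sets of 13 such genes, 1 was called higher and 0 lower, or 5.56% against the 2.88% of all probe sets, with a median difference of 0.17. The rise was that of atp1a1a.2, an alpha 1 gene that follows atp1a1a.1 in the genome in a row of 5 alpha 1 genes. Its ratios were 2.44, 1.70 and 1.27 in beclomethasone pools 1 to 3, against 0.343, 0.734 and 0.612 in control pools 1 to 3, with no overlap. The difference was 1.70 ± 0.33 (3.25-fold; limma adjusted p = 0.0291), and the call was lost without any 1 beclomethasone pool or control pool 3, where the value ran from 1.38 to 1.93 over all single omissions. How far neighbouring copies share hybridisation on this array was not tested.

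Atp1b2a and fxyd11, named after their values were seen, did not pass. Of the 4 probe sets of atp1b2a, a beta 2 subunit gene, 1 had ratios of 2.49, 1.24 and 1.196 in the beclomethasone pools, against 0.338, 0.705 and 0.805 in the control pools (1.42 ± 0.39; limma adjusted p = 0.0848). Another had a difference of 1.25 ± 0.31 (limma adjusted p = 0.060), and it passed with quantile normalization, with array weights and without probe sets of a median below 1. The remaining 2 probe sets of atp1b2a gave 0.28 and 0.087, with overlap between the groups, and had median ratios of 0.898 and 0.871. Fxyd11, whose family encodes small regulators of the pump, had ratios of 2.41, 1.31 and 1.104 in the beclomethasone pools, against 0.778, 0.896 and 0.796 in the control pools (0.88 ± 0.27; limma adjusted p = 0.113). Beclomethasone pool 1 stood highest of the 6 in fxyd11 and in the first 2 of these atp1b2a probe sets, and beclomethasone pool 3 in the other 2.

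**Figure D2:**
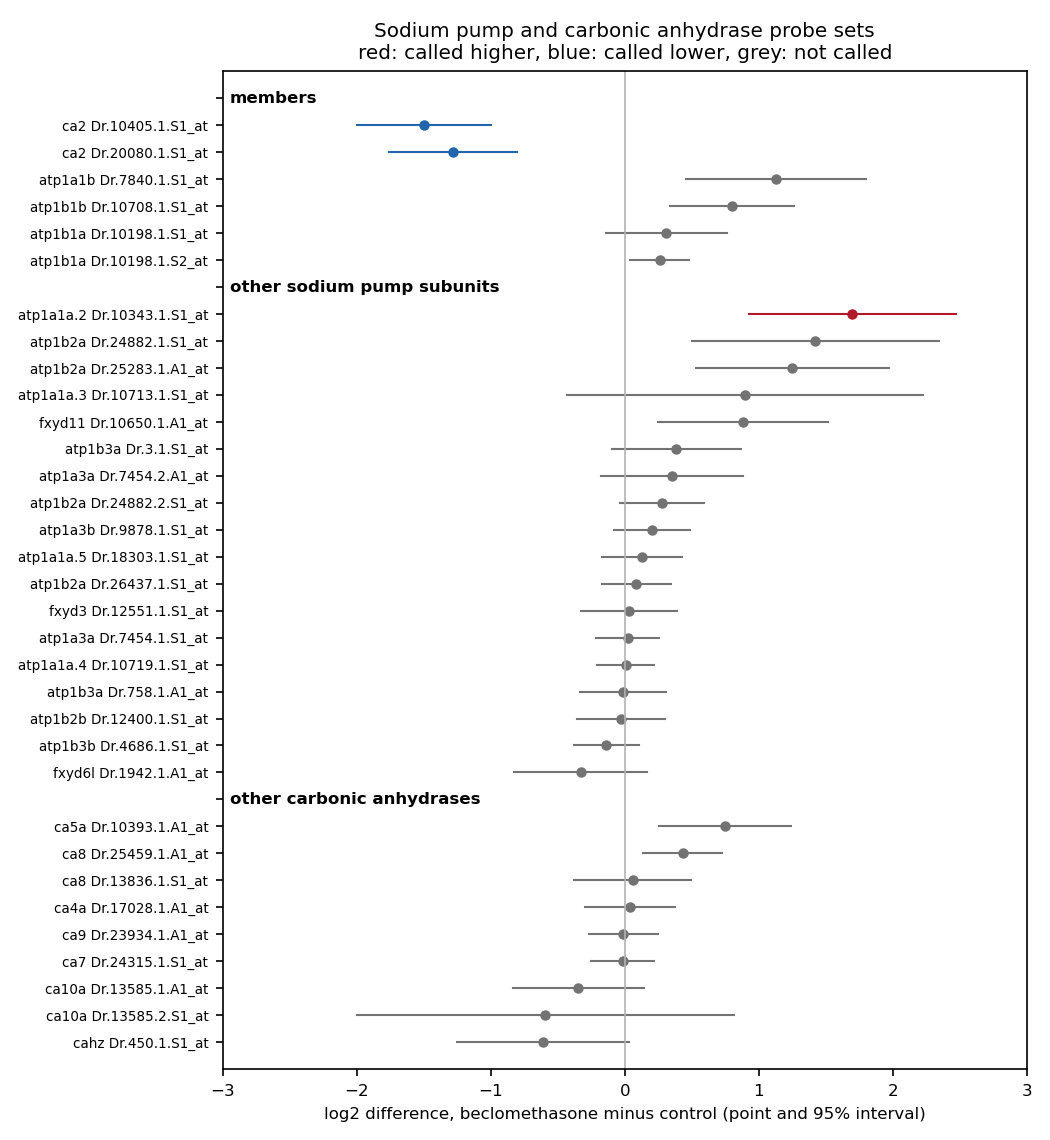
Log2 difference, beclomethasone minus control (x axis), with its 95% interval, for the 6 member probe sets (top), 18 probe sets of other sodium pump subunits (middle) and 9 of other carbonic anhydrases (bottom). Both ca2 probe sets are called lower (blue) and atp1a1a.2 is called higher (red), and most other intervals include 0.

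No other carbonic anhydrase gene passed. Among 9 probe sets of 7 such genes, limma called 0 in either direction, beside 2.88% higher and 3.24% lower of all probe sets. At those shares, 0 calls in 9 probe sets does not set ca2 apart from the other carbonic anhydrases. Without adjustment 2 higher and 0 lower had a p under 0.05, and the median difference was -0.0096. The nearest in direction to ca2 was cahz, a carbonic anhydrase known from zebrafish red blood cells. It had ratios of 1.09, 0.901 and 0.796 in beclomethasone pools 1 to 3, against 0.906, 1.91 and 1.60 in control pools 1 to 3. Control pool 1 lay among the exposed pools, and the difference was -0.61 ± 0.27 (95% interval -1.25 to 0.033; limma adjusted p = 0.267). Without control pool 1 it was -0.93 and passed (limma adjusted p = 0.0169), and with weights fitted to each array it passed as well. Without any other 1 pool the difference of cahz was -0.73 to -0.39 and did not pass (limma adjusted p = 0.310 to 0.564). The mean log2 ratio of ca2 minus that of cahz was -0.56, -0.57 and -0.71 in the beclomethasone pools, against 0.47, -0.098 and 0.13 in the control pools. The difference of the group means was -0.78. Each probe set is scaled to its own median, so the sign within a pool does not show which gene is lower. Ca5a, a mitochondrial carbonic anhydrase gene, had a value in the other direction of 0.75 ± 0.21 (limma adjusted p = 0.0882). It too passed without control pool 1 (0.95, adjusted p = 0.0178) and with array weights (0.96, adjusted p = 0.0127). Without any other 1 pool ca5a was at 0.53 to 0.83 and did not pass (limma adjusted p = 0.156 to 0.226). Without control pool 1, and likewise with array weights, 2 probe sets of the list were called higher and 1 lower. Calls over all probe sets, 446 higher and 502 lower in the main test, rose too. They were 565 and 668 without control pool 1, and 1073 and 1104 with array weights.

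Of 26 probe sets of 18 genes on a list of transporters, channels, junctions and hormone receptors, 3 were called higher (11.5%) and 1 lower (3.85%). Over all probe sets these shares were 2.88% and 3.24%, and 22 of the 26 were not called. Without adjustment 9 higher and 1 lower had a p under 0.05, and the median difference was 0.16. Atp2b1a, a plasma membrane calcium pump gene, rose by 0.86 ± 0.11 on 1 of its 3 probe sets (limma adjusted p = 0.00823), with ratios of 1.45, 1.22 and 1.32 in the beclomethasone pools, against 0.760, 0.776 and 0.667 in the control pools. Its other probe sets gave 0.84 and 0.51 (adjusted p = 0.0943 and 0.093). Atp2b2, a second calcium pump gene, had ratios of 3.58, 1.78 and 1.35 in beclomethasone pools 1 to 3, against 0.646, 0.641 and 0.618 in control pools 1 to 3. The control pools were nearly alike and beclomethasone pool 1 stood far above the other exposed pools. The rise of 1.69 ± 0.32 (limma adjusted p = 0.0275) lost its call without beclomethasone pool 2 or control pool 2 or 3. It was also lost with replicate number as a block (adjusted p = 0.0538), and with a pseudocount of 1, which gave 0.93 (adjusted p = 0.0714). The tight junction gene cldn3c rose by 0.87 ± 0.12 (limma adjusted p = 0.00932), with exposed ratios of 1.23 to 1.48 and control ratios of 0.659 to 0.773.

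The transporter gene that fell was slc4a2a, which encodes a chloride and bicarbonate exchanger, on 1 of its 3 probe sets. It had ratios of 0.701, 0.818 and 0.545 in beclomethasone pools 1 to 3, against 1.18, 1.72 and 1.71 in control pools 1 to 3. The difference was -1.16 ± 0.20 (limma adjusted p = 0.0215), and the call was lost without beclomethasone pool 1 or 3 or control pool 2 or 3. The other probe sets gave 0.0057 ± 0.14 and -0.14 ± 0.16, so the probe sets of this gene disagree. Rhcgb, an ammonia transporter gene of proton-secreting ionocytes, had ratios of 0.881, 0.839 and 0.948 in the beclomethasone pools, against 0.843, 0.884 and 0.768 in the control pools (0.097 ± 0.10; 95% interval -0.15 to 0.34; limma adjusted p = 0.707). This probe set was not scaled to a median of 1, and its median ratio was 0.862. Slc4a4b, a sodium bicarbonate cotransporter gene named after its values were seen, gave -0.080 ± 0.15 (limma adjusted p = 0.837). Slc12a10.2, slc9a3.2 and cldnh had no matched probe set.

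The vacuolar proton pump, which acidifies organelles in all cells and sits in the outer membrane of proton-secreting ionocytes, showed 1 rise and 0 falls in 16 probe sets of 15 genes, with a median difference of 0.0090. That is 6.25% called higher, beside 2.88% of all probe sets. Without control pool 1 the counts were 0 higher and 3 lower. The rise was that of atp6v0cb, a membrane ring subunit gene (1.05 ± 0.23; limma adjusted p = 0.0438), with ratios of 2.21, 1.36 and 1.17 in the beclomethasone pools, against 0.669, 0.828 and 0.709 in the control pools. It lost its call without any 1 pool, after centring, with replicate number as a block and with a pseudocount of 1. Of 12 probe sets of 10 calcium hormone and receptor genes, limma called 0, beside 2.88% higher and 3.24% lower of all probe sets. Without adjustment 1 lower and 0 higher had a p under 0.05, and the median difference was 0.058.

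Lateral inhibition, in which Notch ligands on one precursor hold back its neighbours, sets the number of ionocytes. Genes of this process gave calls in both directions, in counts near the shares over all probe sets. Of 37 probe sets of 27 fate and Notch pathway genes, 1 was called higher (2.70%) and 2 lower (5.41%), beside 2.88% and 3.24% of all probe sets. The Delta ligand gene dla had ratios of 2.69, 1.64 and 1.26 in beclomethasone pools 1 to 3, against 0.496, 0.736 and 0.659 in control pools 1 to 3. It rose by 1.51 ± 0.28 (limma adjusted p = 0.0256). The call of dla was lost without beclomethasone pool 2 or control pool 3, and with replicate number as a block (adjusted p = 0.0851). It was also lost with a pseudocount of 1, which gave 0.79. Dlc, the Delta ligand gene of ionocyte precursors, gave -0.021, -0.015 and 0.017 on its 3 probe sets, each with adjusted p of 0.965 to 0.969. Dlb, a Delta ligand gene named after its values were seen, gave 1.59 ± 0.43 and 0.26 ± 0.17 on its 2 probe sets. Neither passed (limma adjusted p = 0.082 and 0.475), with no overlap between the groups on either. The first passed without control pool 2. The fall of notch2, a receptor gene, was -0.49 ± 0.10 on 1 of 3 probe sets (limma adjusted p = 0.0359), and that of tfap2c, an epidermal transcription factor gene, was -0.58 ± 0.11 on 1 of 2 (limma adjusted p = 0.0252). The remaining probe sets of notch2 gave 0.13 and -0.14 and that of tfap2c 0.23. Neither fall kept its call without any 1 beclomethasone pool or without control pool 2 or 3. That of notch2 was lost without control pool 1 as well. Notch1a gave 0.49 and 0.19 on its 2 probe sets (adjusted p = 0.306 and 0.578).

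The glucocorticoid receptor gene nr3c1, through which beclomethasone acts, had values of -0.34 ± 0.11, -0.66 ± 0.25 and -0.26 ± 0.24 on its 3 probe sets (limma adjusted p = 0.126, 0.185 and 0.643). The cortisol-inactivating enzyme gene hsd11b2, rose by 4.54 ± 0.19 (limma adjusted p = 8.05e-05), with ratios of 1.88, 2.09 and 2.16 in beclomethasone pools 1 to 3, against 0.116, 0.0836 and 0.0699 in control pools 1 to 3. Of the 9 probe sets of corticosteroid genes, 3 were called higher (33.3%) and 0 lower, beside 2.88% and 3.24% of all probe sets. The others called were the receptor co-chaperone gene fkbp5 (3.13 ± 0.27) and the glucocorticoid-induced gene tsc22d3 (1.66 ± 0.18). Hsd11b2 and tsc22d3 were highest in beclomethasone pool 3, where ca2 was lowest. Fkbp5 had ratios of 1.70, 1.90 and 1.86 in beclomethasone pools 1 to 3, highest in pool 2. Control pool 1 was the highest control pool in all 3 of these genes. Whether ca2 follows these genes from pool to pool was not tested.

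Markers of other cells in the fin moved with the groups and among the pools. Over all probe sets, 2.88% were called higher and 3.24% lower, and the counts of markers stand beside these shares. Of 46 keratinocyte probe sets, 17 were called lower (37.0%) and 2 higher, with falls of pkp1b (-2.11 ± 0.14), icn2 (-1.76 ± 0.14 and -1.51 ± 0.20) and anxa1b (-2.96 ± 0.27) and a rise of krt94 (1.47 ± 0.15). The count called lower was 11 without beclomethasone pool 1 and 8 without beclomethasone pool 3, and 12 to 17 without any other pool. The median log2 ratio of keratinocyte markers was -0.25, -0.21 and -0.31 in beclomethasone pools 1 to 3, against 0.30, 0.052 and 0.14 in control pools 1 to 3. Ca2, as the mean of its probe sets, was at -0.43, -0.72 and -1.04 in the beclomethasone pools, against 0.33, 0.84 and 0.81 in the control pools. Taken minus the keratinocyte median it was -0.17, -0.51 and -0.72 in the beclomethasone pools, against 0.026, 0.79 and 0.67 in the control pools. The groups did not overlap after this subtraction, and the difference of the means was -0.96. The markers named above moved further than this median, krt94 upwards, so the subtraction cannot set ca2 apart from keratinocyte change. Tp63, a basal keratinocyte factor gene, gave 0.21 and -0.052 on its probe sets, with overlap on both.

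Of 16 leukocyte probe sets, 2 were called higher (12.5%, cxcr4b and lyz) and 0 lower, beside 2.88% and 3.24% of all probe sets. Without adjustment 3 higher and 5 lower had a p under 0.05, and the median difference was -0.32. The leukocyte medians were -0.15, -0.0088 and 0.026 in beclomethasone pools 1 to 3, against -0.20, 0.46 and 0.63 in control pools 1 to 3. The count called higher was 0 without beclomethasone pool 1 or 2 or control pool 3, and 1 without beclomethasone pool 3 or control pool 2. Without control pool 1, 8 were called lower. That pool was the lowest control pool in these markers, in cahz and on both probe sets of ca2. Red blood cell markers, where limma called 0 of 17 in either direction and without adjustment 4 higher and 2 lower had a p under 0.05, had medians of -0.079, 0.081 and 0.085 in the beclomethasone pools, against -0.70, -0.048 and -0.16 in the control pools, with overlap in slc4a1a (1.11 ± 0.46; limma adjusted p = 0.223) and alas2 (0.36 ± 0.38; adjusted p = 0.694). Of 8 probe sets of mucous and other secretory cells, 1 was called higher and 1 lower (12.5% each). The higher one was foxa1 and the lower one cldn7b. Neither was called without beclomethasone pool 2 or 3 or control pool 3, foxa1 also not without beclomethasone pool 1 and cldn7b not without control pool 2. Leaving out control pool 1 gave 1 called higher and 3 lower. The medians of these markers were 0.24, 0.028 and -0.26 in the beclomethasone pools, against -0.50, 0.20 and 0.11 in the control pools. The part of keratinocytes, leukocytes or other cells in the fall of ca2 was not tested.

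Neuron and glia markers were called higher on 6 of 28 probe sets (21.4%) and lower on 0, beside 2.88% and 3.24% of all probe sets. Among those called were sncgb (1.26 ± 0.17), gfap (1.25 ± 0.18), stmn2a (1.53 ± 0.23) and fabp7a (0.90 ± 0.18). With an unadjusted p under 0.05, 15 of the 28 were higher and 0 lower, and the median difference was 0.54. Over all 15502 probe sets these unadjusted counts were 1707 and 1552. The count called higher was 3 without beclomethasone pool 2 or control pool 3, 2 without beclomethasone pool 3, and 4 to 5 without any other pool. Their medians were 0.64, 0.092 and 0.12 in beclomethasone pools 1 to 3, against -0.51, -0.16 and -0.34 in control pools 1 to 3. Skeletal muscle markers had 2 of 33 probe sets called higher, myod1 (0.77 ± 0.15) and myl10 (0.91 ± 0.20), and medians of 0.71, 0.015 and 0.058 in the beclomethasone pools, against -1.42, -0.015 and -0.95 in the control pools. Control pool 2 stood apart from the other control pools in these markers, and without it 19 were called higher, against 0 to 1 without any other pool. Neurons and muscle use sodium and calcium pumps too, and beclomethasone pool 1, highest in both lists, was also the highest in atp1b1b, atp1a1b, atp1a1a.2, atp2b2 and dla. Minus the neuron and glia median, atp1b1b was at 0.24, 0.26 and 0.020 in the beclomethasone pools, against 0.053, -0.0034 and -0.063 in the control pools, with overlap. Atp1a1b on the same scale was at -0.13, 0.16 and 0.030 in the beclomethasone pools, against 0.34, -0.76 and -1.04 in the control pools, also with overlap. The difference of the means was 0.18 for atp1b1b and 0.51 for atp1a1b. The neuron and glia list itself names the sodium pump genes atp1a3a and atp1a3b. Its median is therefore not independent of pump genes, and the subtraction cannot set atp1b1b or atp1a1b apart from nerve RNA. The part of nerve or muscle RNA in the pump gene values was not tested.

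**Figure D3:**
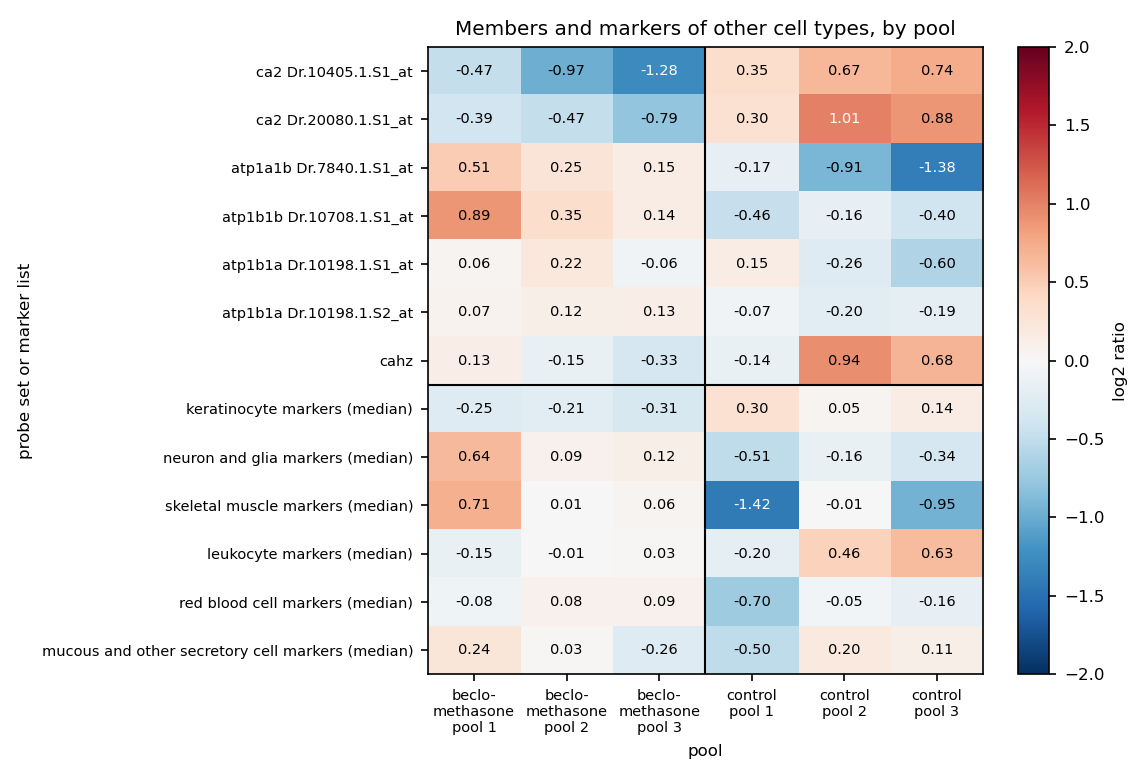
Log2 ratio by pool (columns, beclomethasone pools left of the line and control pools right of it) for the member probe sets and cahz (upper rows) and the median of each list of markers of other cell types (lower rows), red for above 0 and blue for below. Both ca2 rows change sign between the groups, which the scaling to a median of 1 fixes where groups do not overlap. Cahz and leukocyte markers are high in control pools 2 and 3. Beclomethasone pool 1 is highest in atp1b1b and in the neuron and muscle medians.

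The probe sets most like ca2 over the 6 pools were found by the smallest root mean square distance between centred log2 ratios, among other genes with 1 symbol. For the first ca2 probe set they were fgfbp1a, which encodes an FGF-binding protein (0.201 log2 units), cst14b.1 of the cystatin family (0.206) and the protein kinase C beta gene prkcbb (0.211). For the second they were prkcbb (0.110), napsa, of the aspartic protease family (0.124), and the anion exchanger gene slc4a2a on the probe set that fell (0.126). Prkcbb was thus near both probe sets, with ratios of 0.690, 0.672 and 0.610 in beclomethasone pools 1 to 3, against 1.31, 1.85 and 2.00 in control pools 1 to 3. The distance between the probe sets of ca2 themselves (0.207) lay among the distances from the first probe set to these other genes.

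**Figure D4:**
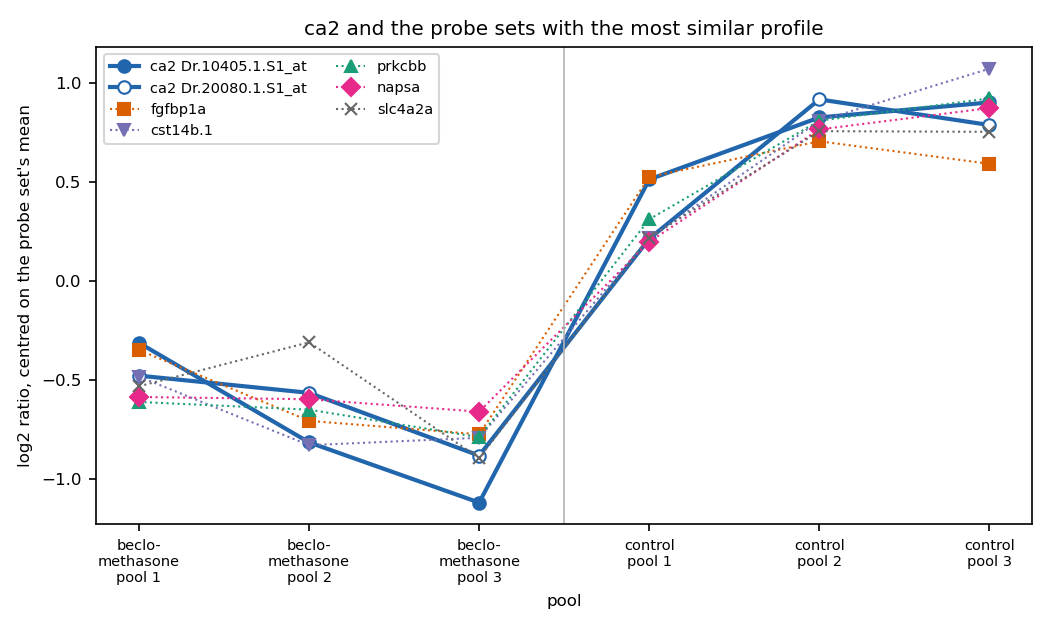
Log2 ratio centred on each probe set's mean (y axis) in the 6 pools (x axis), for the 2 ca2 probe sets (blue lines) and the 5 genes of most similar profile (dotted). All lie below 0 in the beclomethasone pools and above 0 in the control pools, and control pool 1 is the lowest control pool in each. The 5 genes were chosen for their likeness to ca2 in these same pools, so the shared pattern largely follows from the choice.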

How the data were processed

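Each pool's RNA was labelled in 2 cycles and hybridised to 1 array, per the labels' protocols. The deposited values were read as linear ratios from the values themselves: the median over the 6 pools was 1 within 1e-06 for 12601 of 15617 probe sets and lower for 3015. Lower medians included probe sets of rhcgb (0.862), atp1b2a (0.898 and 0.871), dlb (0.503), notch1a (0.624), notch2 (0.584) and dlc (0.937). The filter on the median left these probe sets out. GCRMA is named in the submitters' processing notes, without a version, and how the ratios were made from its signals was not given in the sources used here. Ratios carry no expression level, so probe sets are not compared in level. The brightness behind each ratio is unknown, and the number of arrays limits the precision.

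Ratios were log2-transformed with no pseudocount or filter, the array's 115 control probe sets were dropped, and the other 15502 entered limma 3.58.1 in R 4.3.3 (lmFit, eBayes, Benjamini-Hochberg adjustment, threshold 0.05). Intervals are 95%. Of the probe sets tested, 10795 had 1 symbol, 135 several and 4572 none in the platform annotation, and none was named from several. Array medians of the ratios were 0.955 to 0.998. Log2 ratios correlated at 0.656 to 0.748 within the beclomethasone pools and 0.583 to 0.778 within the control pools. In data simulated for this comparison over 15502 probe sets, the test recovered 20% of 1.5-fold, 68% of 2-fold and 90% of 4-fold changes. It recovered 96% of falls to 0.25-fold, with 50 probe sets of each size and 2 false calls among 139. The noise was simulated independently for each probe set, with no shift shared within a pool. These rates need not hold in the real pools.

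The genes and lists were chosen with earlier results of these data known. Named genes are every member, up to 4 called genes of smallest p per list (all where 5 or fewer were called), a set named in any case, and the 3 nearest profiles of each called member. Atp1b2a, fxyd11, cahz, ca5a, slc4a4b and dlb were added with their values in view. Alternatives changed the scaling (quantile normalization, centring, a pseudocount of 1), the model (array weights, a trended prior with robust fitting, a replicate block), the features (a filter on the median, genes as the unit), the limit (1.5-fold) and the pools (each left out). Planned looks at promoters and protein sequences were not run.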

Additional observations from a re-analysis of the deposited data

How the results depend on the processing

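The fall of ca2 kept its sign under every alternative run, and with a pseudocount of 1 it was -0.70 and -0.67 (adjusted p = 0.0123 and 0.0267), since adding 1 to ratios near 1 shrinks every difference. The number of members called lower, 2 in the main test, was 1 with genes as the unit, where ca2 is 1 gene, and 1 to 2 without each pool in turn. The number called higher, 0 in the main test, was 2 with a variance trend and robust fitting (atp1a1b and atp1b1b), 3 with array weights, 1 with genes as the unit and 0 to 1 without each pool. Probe sets of the pathway lists called higher, 9 in the main test, numbered 18 with array weights, 6 with a pseudocount of 1 and 5 to 12 without each pool, and those called lower, 3 in the main test, numbered 8 with array weights, 1 at a limit of 1.5-fold and 0 to 7 without each pool. Array weights gave beclomethasone pool 2 a weight of 5.41 and the other pools 0.506 to 1.33. Deviations from the group means correlated at -0.209, -0.038 and 0.111 between same-numbered pools, and at -0.245 to 0.265 between pools of different number. With 3 pools in each group, these values cannot show whether the replicate numbers pair the pools. With the replicate block 0 members and 0 pathway probe sets were called lower, with ca2 at adjusted p = 0.0542 and 0.0554. The block also removed the calls of atp1a1a.2 (adjusted p = 0.0978), atp2b2 (0.0538), dla (0.0851) and atp6v0cb. Among the named markers it removed those of gfap, stmn2a, foxa1, myod1, myl10 and cldn7b. The sign turned for some probe sets that were not called. For the dlc probe sets, quantile normalization gave -0.019, array weights gave 0.017 and -0.19, and leaving out each pool gave -0.20 to 0.17, -0.13 to 0.11 and -0.13 to 0.18. Slc4a2a on a second probe set gave -0.0067 after centring, -0.033 with array weights and -0.12 to 0.093 without each pool. Array weights gave 0.086 for the nr3c1 probe set at -0.26 and 0.049 for tp63, and leaving out each pool gave -0.15 to 0.077 for tp63, -0.23 to 0.011 for slc4a4b, -0.25 to 0.027 for notch2 and -0.038 to 0.78 for alas2, which was at 0.36. The cause of these changes was not tested.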
